A study of Solanum tuberosum with 10 samples.

Results

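PGSC0003DMG400015760 is the potato gene that the study annotated as Transcription factor FAMA. It lies on chromosome 5 of the SolTub 3.0 build (49098850 to 49102347, plus strand), a span of 3498 bases that 0 other features of the table overlap, and its reads were counted over its exons. It is 1 of the 40430 features measured. The gene was selected on its measured values, since the study listed it for the difference between ultrasonicated and control material at 4 w, and its course over the other times was also known when it was chosen by identifier. Every value of it below is therefore a description, without a test.

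The material was in vitro potato (Solanum tuberosum L., wild type, cultivar Desirée), a crop that is propagated in culture by cutting plantlets into pieces with a single node and a single leaf. In the ultrasonicated (US) group, such explants from plantlets aged 4 w were exposed to ultrasound at 35 kHz and 70 W for 20 min while lying on the medium. The control group was cut and cultured in the same manner but was not exposed, and both groups were kept on Murashige and Skoog medium that held no growth regulators. Each group was sampled directly after the exposure (0 h), after 24 h and 48 h, and after 1 w and 4 w of subculture, with 1 library per group and time. Both groups therefore shared the cutting wound and the change of medium. Per the methods of the study, explants were taken up to 48 h, and leaves, stems and roots of the regrown plantlets at 1 w and 4 w, whereas the labels name leaf for all 10 libraries. The time after treatment and the kind of material cannot be told apart between 48 h and 1 w. The methods describe 3 biological replicates pooled into each library and the labels a single replicate, so there are no replicate values, and each comparison is between 2 libraries.

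In Arabidopsis, FAMA is a basic helix-loop-helix transcription factor of the stomatal lineage, the series of epidermal cells that ends in the paired guard cells around each leaf pore. Its relatives SPEECHLESS and MUTE act earlier in the lineage, and FAMA acts at the last step, where it halts the symmetric division of the guard mother cell and sets the guard cell fate. It works as a dimer with SCREAM (ICE1) proteins. The gene is thus known from that species as one that few cells of a shoot express, for a short period. In bulk material of this kind, fewer cells of a type and less RNA per cell cannot be told apart.

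Levels are given as RPM, the number of reads of a gene per 1000000 reads of its library, which does not account for gene length. The libraries held between 33850938 and 45899162 reads, so 1 RPM stood for 33.9 to 45.9 reads. Intervals of 95% were computed from the recovered reads by exact methods (Poisson for a level, conditional binomial for a ratio of levels) and cover counting error only. A rule of size was used to call differences: a log2 difference of 2 or more, which is 4-fold, with 1 RPM or more in the higher of both libraries.

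FAMA was detected in every library, and its highest level was in US plantlets at 4 w. In US material FAMA had 591 reads at 0 h, 56 at 24 h and 369 at 48 h in explants, and 219 at 1 w and 1517 at 4 w in plantlets. In control material it had 322 reads at 0 h, 244 at 24 h and 78 at 48 h in explants, and 274 at 1 w and 142 at 4 w in plantlets. The course of the US libraries was thus saw-toothed, with a low at 24 h and a peak at 4 w, whereas the control libraries stayed within a narrower band whose high was at 0 h.

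In RPM, the US libraries measured 16.2 (95% interval 14.9 to 17.6) at 0 h, 1.42 (1.07 to 1.85) at 24 h and 8.93 (8.05 to 9.89) at 48 h in explants, and 5.41 (4.71 to 6.17) at 1 w and 38.5 (36.5 to 40.4) at 4 w in plantlets. The control libraries measured 9.51 (8.50 to 10.6) at 0 h, 5.32 (4.67 to 6.03) at 24 h and 2.05 (1.62 to 2.56) at 48 h in explants, and 6.74 (5.96 to 7.58) at 1 w and 3.10 (2.61 to 3.65) at 4 w in plantlets. The highest US level was 27.0-fold the lowest (95% interval 20.7 to 36.0), and the highest control level was 4.64-fold the lowest (3.61 to 6.02). On the log2 scale the range of FAMA over the 5 times was 4.76 in US and 2.21 in the control, beside medians of 1.63 and 1.43 over the 20494 expressed features (mean log2 RPM of at least 0). The US range exceeded the control range by 2.54 for FAMA, against a median excess of 0.17, which placed it 362nd of those features.

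**Figure D1:**
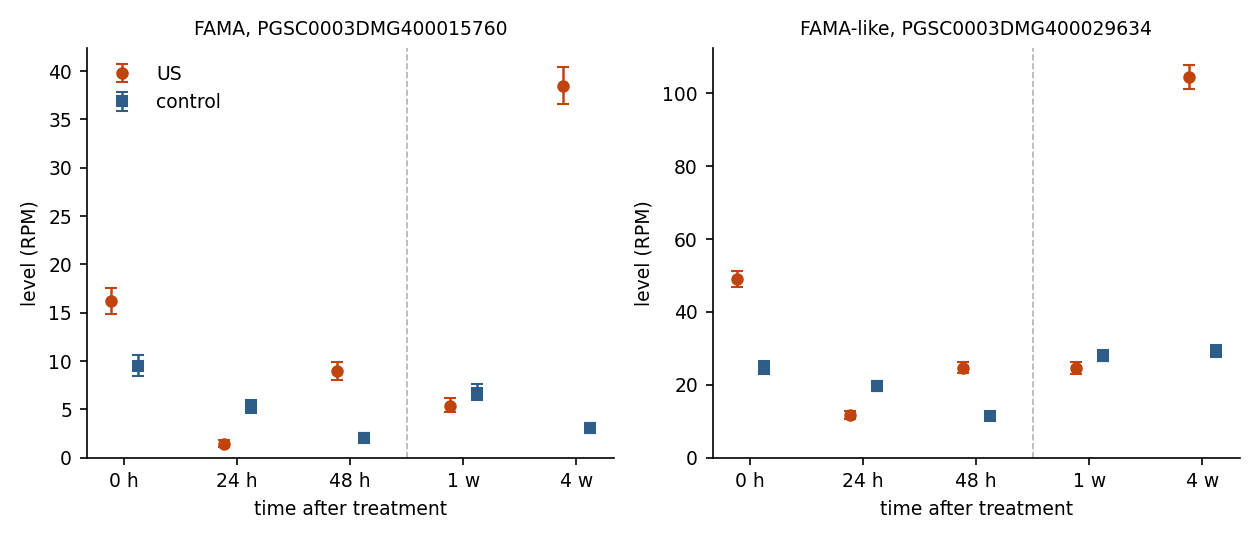
Level in RPM (linear axes from 0) of FAMA on the left and of the second FAMA-annotated gene on the right, at 5 times after treatment. Circles are US and squares are control libraries, 1 library each, bars are exact 95% Poisson intervals of the reads, and the dashed line separates explants from plantlets. FAMA at 4 w stood at 38.5 RPM in US and 3.10 RPM in the control.

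Ordered by level, the 10 libraries ran from US at 4 w down through US at 0 h, control at 0 h, US at 48 h, control at 1 w, US at 1 w, control at 24 h, control at 4 w and control at 48 h to US at 24 h. Of the 9 neighbouring pairs in this order, 7 differed beyond counting error. The other 2 pairs did not, namely control at 0 h over US at 48 h (1.06-fold, 95% interval 0.914 to 1.24) and US at 1 w over control at 24 h (1.02-fold, 0.843 to 1.23). The US libraries took both the highest and the lowest place. Whether any of these gaps exceeds the spread between cultures is not known from 1 library per group.

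The comparison of US with control material at the same time described how the level of FAMA differed between the 2 libraries. FAMA was higher in US at 0 h, 48 h and 4 w, and lower at 24 h and 1 w. It passed the rule of size at 48 h and 4 w, both upward, so at 2 of the 5 times. The gene did not keep 1 direction through the experiment, and all 5 ratios had counting intervals that excluded 1.

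At 4 w, FAMA rose 12.4-fold in US over control plantlets (95% interval 10.4 to 14.8), a log2 difference of 3.63. At that time 5.42% of the 21114 features with at least 1 RPM in either library passed the rule, 505 upward and 639 downward. This is the contrast for which the gene was listed, so its place there is a description alone. FAMA ranked 99th among the rises at 4 w, or in the highest 0.469% of features.

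At 48 h, FAMA rose 4.36-fold in US over control explants (95% interval 3.41 to 5.64), a log2 difference of 2.12, just past the limit of 2. At that time 4.19% of 21785 features passed the rule, with 303 upward and 610 downward. FAMA ranked 265th among the rises, in the highest 1.22%. Rises past the rule were the less common direction at that time.

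At 24 h, the US level was 0.268 of the control level (95% interval 0.196 to 0.359), a log2 difference of -1.90. This is a 3.74-fold lower level, just short of the rule, which 3.21% of 21414 features passed. FAMA ranked 439th among the lower features at 24 h. At 0 h the US level was 1.70-fold the control level (1.48 to 1.96), a log2 difference of 0.77, where 3.75% of 21236 features passed the rule and FAMA did not. At 1 w, US was 0.802 of the control (0.669 to 0.962), a log2 difference of -0.32, the smallest of the 5, where 1.73% of 21701 features passed.

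**Figure D2:**
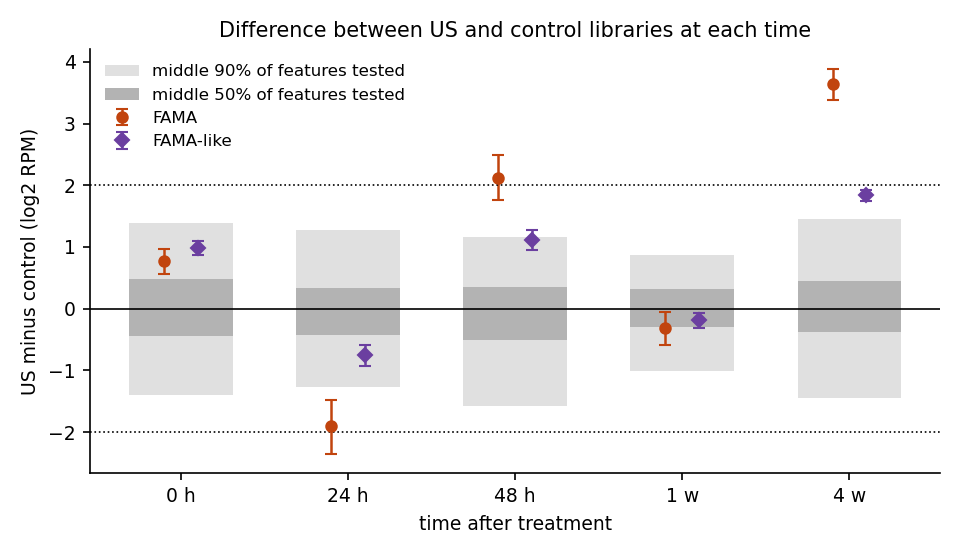
Difference between US and control in log2 RPM at each time for FAMA (circles) and the FAMA-like gene (diamonds), with exact 95% counting intervals; light and dark grey bars span the middle 90% and 50% of features with at least 1 RPM in either library, and dotted lines mark the rule of size. FAMA lay beyond the light bar at 24 h (-1.90), 48 h (2.12) and 4 w (3.63).

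The alternation of FAMA between 24 h and 48 h was itself common. Of 20909 features measured at both times, 35.9% were lower in US at 24 h and higher at 48 h, as FAMA was, and 34.9% had the opposite order. Over all 5 times, 10.2% of 19415 features shared the direction of FAMA at each time. Features with differences as large as those of FAMA were fewer. Past the rule upward at both 48 h and 4 w were 29 features with FAMA counted, which is 9.57% of the rises at 48 h and 5.74% of those at 4 w. Over all features tested, 505 of 21114 rose past the rule at 4 w and 303 of 21785 at 48 h. Both shares thus lay above those over all features, and the overlap was not tested. Of these 29, 8 were also at least as low as FAMA in US relative to control at 24 h, FAMA included. At least as high as FAMA at both 48 h and 4 w were 6 of 20467 features, FAMA again included. These counts were made after the values of FAMA were seen, and the gene was chosen on such values. Low counts at its own values follow from that choice and are not evidence of rarity.

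Steps between adjacent times showed where the course in US departed from that of the control. In US, FAMA fell at 24 h to 0.0878 of its level at 0 h (95% interval 0.0655 to 0.116), a log2 difference of -3.51, beside 19.9% of features past the rule in that step. It then rose 6.28-fold at 48 h over 24 h (4.73 to 8.47), a log2 difference of 2.65, where 8.68% of features passed. At 1 w the level was 0.605 of that at 48 h (0.510 to 0.717), which did not pass the rule, as 5.15% of features did. FAMA rose again 7.11-fold at 4 w over 1 w (6.17 to 8.23), a log2 difference of 2.83, where 15.7% passed. In all, 3 of 4 steps in US passed the rule.

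In the control, 0 of 4 steps passed the rule. The control level at 24 h was 0.559 of that at 0 h (95% interval 0.471 to 0.662), in a step that 16.0% of features passed. The control at 48 h stood at 0.386 of the level at 24 h (0.295 to 0.500), where 4.93% passed, the opposite direction to US in the same step. The control at 1 w was 3.29-fold that at 48 h (2.55 to 4.28), where 8.99% passed, and the control at 4 w was 0.460 of that at 1 w (0.373 to 0.565), where 7.57% passed. US and control thus moved alike in direction from 0 h to 24 h and in opposite directions in each of the other steps. These steps share libraries with each other and with the US comparisons, and are given side by side for that reason.

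A second gene carries the FAMA name in the study's annotation, PGSC0003DMG400029634 (transcription factor FAMA-like isoform X2). It lies on chromosome 9 (58673057 to 58675515, plus strand), and like FAMA it had 0 overlapping features. The study's best protein matches of the genes belong to different RefSeq entries, LOC102586799 for FAMA and LOC107063197 for the FAMA-like gene. The study listed both genes from these libraries, so the second is not independent support for the first. How alike their sequences are was not tested, and the counting kept uniquely aligned reads.

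The FAMA-like gene was on the same side of the control as FAMA at each time, with a larger difference than FAMA at 0 h and smaller ones at the other times. In US material it had 49.0 RPM at 0 h, 11.6 at 24 h and 24.6 at 48 h in explants, and 24.6 at 1 w and 104 at 4 w in plantlets. In control material it had 24.8 RPM at 0 h, 19.7 at 24 h and 11.4 at 48 h in explants, and 28.0 at 1 w and 29.3 at 4 w in plantlets. As with FAMA, the highest library was US at 4 w and the lowest ones were US at 24 h and the control at 48 h.

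The log2 difference between US and control for the FAMA-like gene was 0.99 at 0 h, -0.76 at 24 h and 1.11 at 48 h in explants, and -0.19 at 1 w and 1.83 at 4 w in plantlets. None of the 5 passed the rule of size, and all 5 counting intervals excluded a ratio of 1. At 4 w the ratio was 3.57 (95% interval 3.35 to 3.80), near the limit of 4. In the steps over time, US at 24 h was 0.237 of 0 h (0.214 to 0.263) and US at 4 w was 4.24-fold 1 w (3.96 to 4.55), and these 2 steps of 4 in US passed, against 0 of 4 in the control. The courses of the pair parted in other steps. In US at 1 w over 48 h, FAMA stood at 0.605 and the FAMA-like gene at 1.00 (0.915 to 1.09). In the control at 4 w over 1 w, FAMA stood at 0.460 and the FAMA-like gene at 1.04 (0.964 to 1.13).

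The share of FAMA among the reads of both genes showed how far the pair moved unequally. This share is not scaled to gene length, so it is compared between libraries and not between genes. In US it was 24.9% at 0 h, 10.9% at 24 h and 26.6% at 48 h in explants, and 18.0% at 1 w and 26.9% at 4 w in plantlets. In the control it was 27.8% at 0 h, 21.3% at 24 h and 15.2% at 48 h in explants, and 19.4% at 1 w and 9.58% at 4 w in plantlets. At 24 h the share was below that of the control, with exact 95% binomial intervals of 8.34% to 13.9% in US and 19.0% to 23.8% in the control. At 48 h it was above the control, with an interval that began at 24.3% in US and ended at 18.6% in the control. At 4 w the intervals were 25.8% to 28.1% in US and 8.13% to 11.2% in the control. The intervals overlapped at 0 h and at 1 w, the times at which the differences of both genes were also small or alike.

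**Figure D3:**
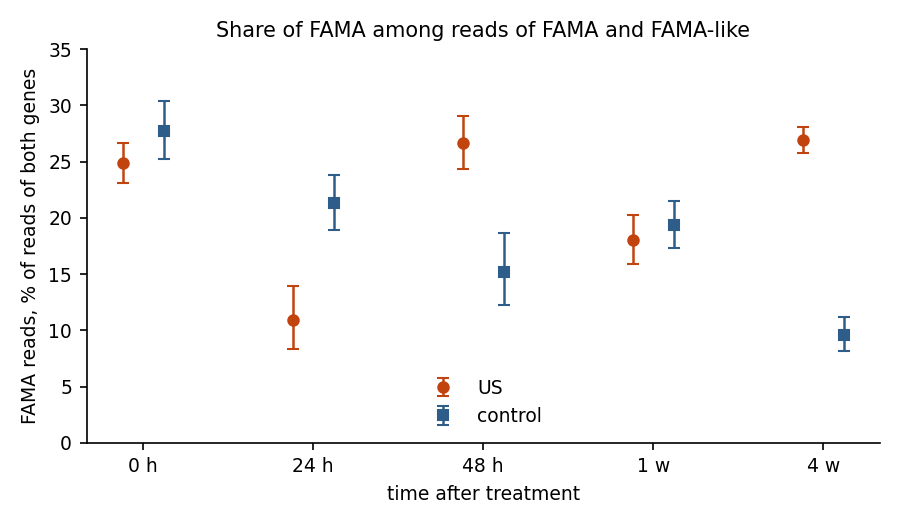
Percentage of FAMA among the summed reads of FAMA and the FAMA-like gene in each library, with exact 95% binomial intervals; circles are US and squares are control libraries at 5 times. The intervals were apart at 24 h, 48 h and 4 w, and at 4 w the share was 26.9% in US and 9.58% in the control.

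Across the 10 libraries, log2 RPM of both genes had a Pearson r of 0.92 and a Spearman rho of 0.77. The points share libraries and depth, and 1 library of high level can carry such a value. Without the US library at 4 w, r was 0.85 over 9 libraries, and without both libraries at 4 w it was 0.95 over 8. Without the 2 libraries farthest from the FAMA median, US at 24 h and US at 4 w, r was 0.77 and rho 0.57. Each treatment alone has 5 libraries, too few for a correlation, and the parting of the pair in the control at 4 w over 1 w was given above. The FAMA-like gene ranked 16th of the 20494 expressed features by its r with FAMA.

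The 5 features with the course most like that of FAMA had r between 0.93 and 0.96 over the 10 libraries, where the median over all searched features was -0.07. In order they were PGSC0003DMG400025658 on chromosome 2 (27671769 to 27676948, plus strand), PGSC0003DMG400030032 on chromosome 6 (29695707 to 29697594, minus strand), PGSC0003DMG400029059 on chromosome 1 (37680220 to 37685394, plus strand), PGSC0003DMG402011239 on chromosome 10 (659253 to 663108, minus strand) and PGSC0003DMG400007096 on chromosome 7 (52462910 to 52465080, minus strand). None of the 5 has a name in the annotation used here, and 0 of them overlapped another feature. In all, 25 features reached an r of 0.9.

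These genes shared the directions of FAMA at each time after 0 h but not its sizes. Between US and control their log2 differences lay between -1.53 and -0.63 at 24 h, between 0.55 and 1.38 at 48 h, between -0.40 and -0.02 at 1 w and between 0.85 and 2.29 at 4 w. At 0 h they lay on both sides of 0, between -0.21 and 0.38. PGSC0003DMG400030032, the gene with the second highest r, had 8.25, 1.68, 6.85, 3.26 and 21.5 RPM in US and 9.57, 3.94, 2.63, 4.20 and 4.41 RPM in the control, from 0 h to 4 w. It passed the rule at 4 w (log2 difference 2.29), as PGSC0003DMG400007096 did (2.07), so 2 of the 5 passed there and 0 at 24 h or 48 h. PGSC0003DMG400025658, first by r, ran from 62.8 RPM in US at 24 h to 201 RPM in US at 4 w. Likeness of course is a description of these libraries and says nothing of function.

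Of the nearest features on the chromosome, 3 were expressed at 1 RPM or more, and their differences between US and control were small beside those of FAMA at 24 h, 48 h and 4 w. Before it lie PGSC0003DMG400015761 (49089603 to 49097664, plus strand), 1185 bases away, and PGSC0003DMG400042553 (49084498 to 49085951, minus strand), 12898 bases away. After it lie PGSC0003DMG402015759 (49105830 to 49108261, plus strand), 3482 bases away, and PGSC0003DMG401015759 (49118009 to 49122396, plus strand), 15661 bases away. The 3 expressed neighbours passed the rule of size at 0 of the 5 times, and PGSC0003DMG400042553, at up to 0.283 RPM, could not be called by it.

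The gene just before FAMA, PGSC0003DMG400015761, was measured at 53.8 to 130 RPM and differed between US and control by -0.68 to 0.72 on the log2 scale. Its difference was 0.72 at 24 h and -0.68 at 48 h, opposite in direction to FAMA at both times, and its r with FAMA was -0.67. PGSC0003DMG402015759, at 545 to 1624 RPM, differed by -0.53 to 0.59. PGSC0003DMG401015759, at 2.98 to 6.67 RPM, differed by -0.40 to 0.69. PGSC0003DMG400042553 had between 0 and 13 reads in a library, too few to give a difference.

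**Figure D4:**
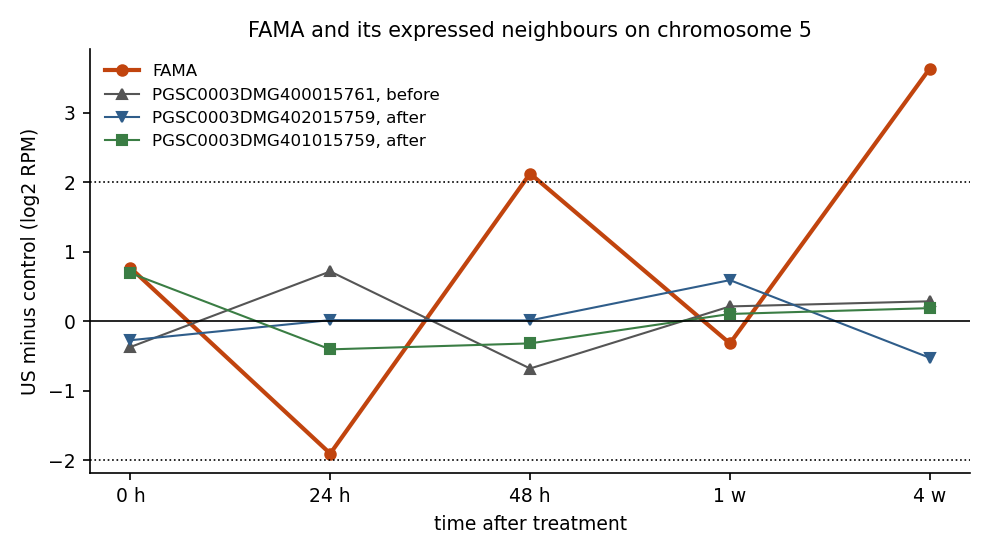
Difference between US and control in log2 RPM at 5 times for FAMA (thick line) and its 3 expressed neighbours on chromosome 5; dotted lines mark the rule of size. The neighbours stayed between -0.68 and 0.72, while FAMA ran between -1.90 and 3.63.

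Other genes were described by lists of names that the study gave to genes it had picked from these same libraries, so the counts are not independent evidence, and they stand beside the share of all features past the rule given above. The list of transcription factors had 19 members, 17 besides the FAMA-annotated pair, and most were regulators of stress and hormone responses of the WRKY, ethylene-responsive, ZAT10-like and homeobox-leucine zipper kinds. At 4 w, 7 of the 17 rose past the rule and 2 fell. Their median log2 difference at 4 w was 0.57, beside 0.02 over all features tested at that time.

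FAMA was therefore 1 of 8 listed transcription factors that rose past the rule at 4 w, and 10 of the 17 others were higher in US at any size. Only ERF017 (PGSC0003DMG400002899), an ethylene-responsive factor, and PGSC0003DMG400041467, a ZAT10-like zinc finger gene, had a larger rise than FAMA among them. ERF017 had 20.5 RPM in US and 1.44 RPM in the control, 14.3-fold higher (95% interval 11.1 to 18.6). The ZAT10-like gene had 40.2 RPM in US and 3.16 RPM in the control, 12.7-fold higher (10.7 to 15.2). WRKY transcription factor 40 (PGSC0003DMG400007387) had 0 reads in US and 345 in the control at 4 w, at least 99.0-fold lower when US is set to a floor of 3 reads. The intervals of ERF017 and of the ZAT10-like gene overlapped that of FAMA.

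In the explants, FAMA and most of the other listed transcription factors lay in opposite directions. Of those 17, 11 were higher in US at 24 h and 16 were lower at 48 h, and 11 did both. Over the 20909 features measured at both times, 34.9% did both and 35.9% had the opposite order. FAMA was lower at 24 h and higher at 48 h, an order that 1 of the 17 had, the NAC transcription factor 29-like gene PGSC0003DMG400002824 (-0.65 and 0.31). ERF017 had a log2 difference of 2.79 at 24 h and -1.84 at 48 h, opposite to FAMA at both times. The list held 0 members besides the pair with the directions of FAMA at all 5 times. These counts were made after the values were seen and were not tested.

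The epidermis is the tissue that FAMA is known from, so the epidermis and cuticle list of 24 genes was set beside it. At 4 w, 0 of the 24 rose past the rule and 15 fell. The median log2 difference of the list was -2.44, beside 0.02 over all features tested. That list median covers all 24, of which 21 had at least 1 RPM in either library and could be called. Most of the 24, and most of the 15 that fell, carry the name of lipid-transfer proteins. These counts thus rest largely on that gene family, whose place in the epidermis was not tested. The summed level of all 24 was 365 RPM in US and 1659 RPM in the control at 4 w. Over the other times the sum lay at 1004 to 3253 RPM in US and 1242 to 4383 RPM in the control. The FAMA-annotated pair thus had its highest summed level in US at 4 w, the library in which the epidermis and cuticle list had its lowest. The part of the cell type makeup of the plantlets in either value was not tested.

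The genes of this list with the largest differences at 4 w were named as an alkane hydroxylase, a GDSL esterase/lipase and lipid-transfer proteins. What they do in this material was not tested. The alkane hydroxylase MAH1-like gene (PGSC0003DMG400031199) had 0 reads in US and 211 in the control, at least 60.5-fold lower in US. A GDSL esterase/lipase (PGSC0003DMG400028703) had 0 reads in US and 203 in the control, at least 58.2-fold lower. A lipid-transfer protein gene (PGSC0003DMG400012838) had 1 read in US and 206 in the control (177-fold lower, 95% interval 31.5 to 7036). A further lipid transfer protein gene, PGSC0003DMG400032249, had 30 reads in US and 3025 in the control, 86.8-fold lower (60.7 to 129). Lipid-transfer proteins form a multigene family, and only uniquely aligned reads were counted. Reads that match several members would therefore be lost, so these values are uncertain. Of the 2 protodermal factor 1-like genes, which mark the outer cell layer in Arabidopsis and were named here after their values were seen, PGSC0003DMG400017342 fell at 4 w (log2 difference -3.06) and PGSC0003DMG400007796 differed by -1.93, short of the rule. Not every member fell. The epidermis-specific glycoprotein EP1-like gene (PGSC0003DMG402007101) had 407 reads in US and 494 in the control at 4 w, a log2 difference of -0.06. It differed by 2.75 at 24 h and -2.13 at 48 h, opposite to FAMA at both times.

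At the earlier times the epidermis list did not move in 1 direction. At 0 h 2 members rose past the rule and 2 fell, at 24 h 1 rose and 1 fell, at 48 h 6 rose and 3 fell, and at 1 w 4 rose and 5 fell. Its median log2 difference was -0.21 at 0 h, -0.63 at 24 h, 0.33 at 48 h and -0.28 at 1 w. The medians over all features with at least 1 RPM in either library were 0.02, -0.07, -0.07 and 0.01. The list medians cover all 24 members, also those below that level. At these times 18, 19, 21 and 22 of the 24 reached it and could be called. At 24 h, 48 h and 1 w the list median had the direction of FAMA, at smaller size, and at 0 h and 4 w it had the opposite one. The summed level went the other way from the median at 24 h and 48 h. It was 2179 RPM in US and 1798 RPM in the control at 24 h, and 3253 RPM in US and 4383 RPM in the control at 48 h.

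**Figure D5:**
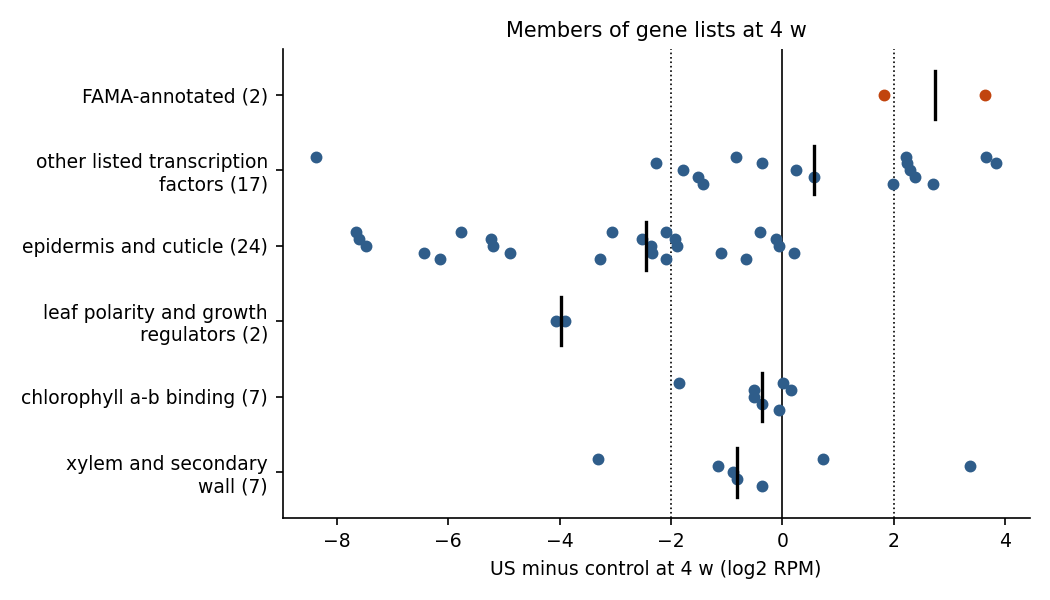
Difference between US and control in log2 RPM at 4 w for each member (points) of 6 lists of genes that the study named, with the median of each list as a black bar and the rule of size as dotted lines; points are spread vertically for legibility. Both FAMA-annotated genes lay above 0 (3.63 and 1.83), and the median of the epidermis and cuticle list was -2.44.

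All 7 listed chlorophyll a-b binding protein genes, which encode light-harvesting antenna proteins of green cells, had at least 1 RPM in the higher of both libraries at each time. The study picked them from these same libraries, so their presence cannot check the labelled tissue. Their summed level ranged from 62.3 to 400 RPM in US and from 120 to 1212 RPM in the control. None of the 7 passed the rule at any time. Their median log2 difference was -1.04 at 0 h, -0.66 at 24 h and 0.97 at 48 h in explants, and -1.65 at 1 w and -0.37 at 4 w in plantlets. The median thus had the direction of FAMA at 24 h, 48 h and 1 w, and the opposite one at 0 h and 4 w. At 1 w the summed level was 400 RPM in US and 1212 RPM in the control. The part of green tissue in the level of FAMA was not tested. At 4 w, PGSC0003DMG400004301, with the largest difference of the 7 at that time, had 33.2 RPM in US and 121 RPM in the control. PGSC0003DMG400008299, PGSC0003DMG400008300 and PGSC0003DMG400008301 differed at 4 w by -0.51, -0.51 and -0.37 on the log2 scale. The remaining members differed at 4 w by 0.01, -0.06 and 0.16. Of the 5 times, the median of this list was nearest to 0 at 4 w.

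Both genes of leaf form went against FAMA at 4 w. YABBY 1 (PGSC0003DMG400025969), which in Arabidopsis belongs to a family that gives the lower face of the leaf its identity, had 0.786 RPM in US and 13.1 RPM in the control, 16.7-fold lower (95% interval 11.6 to 24.8). Growth-regulating factor 1-like (PGSC0003DMG400013004), of a family that promotes cell proliferation in leaves, had 0.963 RPM in US and 14.4 RPM in the control, 0.0667 of the control level (0.0468 to 0.0925). At 48 h both were higher in US, with log2 differences of 1.83 and 1.00, and at 24 h both were lower, with -1.08 and -0.96. At 0 h they differed by -1.34 and -0.62, and at 1 w by 0.97 and 0.30. These genes thus had the directions of FAMA at 24 h and 48 h, and the opposite ones at 0 h, 1 w and 4 w.

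The 7 genes of xylem and secondary wall ran against FAMA in the explants. At 48 h, 6 of 7 fell past the rule in US with a median log2 difference of -3.97, and at 24 h 2 rose, with a median of 1.83. At 4 w the median was -0.81 and 1 of 7 fell, xylem cysteine proteinase 1-like PGSC0003DMG400029400, with 7 reads in US and 81 in the control. At that time 6 of the 7 had at least 1 RPM in either library, and the median covers all 7. The other genes named by size were PGSC0003DMG400009921 (log2 difference -1.15), the fasciclin-like gene PGSC0003DMG400003371 (-0.89) and the laccase PGSC0003DMG402027116, which had 8 reads in US and 0 in the control, too few to pass. The summed level of this list at 48 h was 55.3 RPM in US and 413 RPM in the control. The part of these tissues in the level of FAMA was not tested.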

How the data were processed

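The authors made stranded libraries from oligo(dT)-selected mRNA, trimmed the reads with Trim Galore 0.5.0, aligned them to SolTub 3.0 with HISAT2 2.1.0 and counted exons in SeqMonk at a mapping quality of at least 60. The deposited values are log2 RPM per feature, scaled by the authors to each library total, in 1 table of 10 libraries (0 columns were left unmapped). A feature without reads holds the value of 0.9 reads, from which totals and reads were recovered; 99.98% of values lay within 0.1 of a whole read. Strandedness of the counting is not given in the sources used here. Recovery, likeness ranks and interval coverage were run on simulated data. The simulation held the same floor of 0.9 reads, and its planted gene was a shifted copy. Recovery and rank were therefore checked as code alone. Computation used Python 3.11.15, NumPy 2.4.6, SciPy 1.17.1 and pandas 2.3.3.

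With 1 library per group no test was made: levels have exact Poisson intervals, ratios exact conditional (Clopper-Pearson) intervals, and libraries without reads a floor of 3 reads (0.0654 to 0.0886 RPM). Features were called by the rule of size. Named genes were both FAMA-annotated genes, the 5 features of highest Pearson r among those with mean log2 RPM of at least 0, the 2 nearest features on each side and up to 4 members per list with the largest difference at 4 w. The genes and lists were chosen with earlier results of these data known. Alternatives were quantile normalization, median-of-ratios factors, totals without ribosomal features, other limits of the rule, other measures of likeness and omission of the 4 w libraries. A list of other stomatal regulators was not run, because 0 identifiers matched names in the reference table. No sequence is shown for the same reason.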

Additional observations from a re-analysis of the deposited data

Results flagged for a closer look

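The direction of the US difference of FAMA (PGSC0003DMG400015760) changed between times. The log2 difference between US and control was 0.77 at 0 h, -1.90 at 24 h and 2.12 at 48 h in explants, and -0.32 at 1 w and 3.63 at 4 w in plantlets. The second FAMA-annotated gene (PGSC0003DMG400029634) changed direction at the same times, with 0.99 at 0 h, -0.76 at 24 h and 1.11 at 48 h in explants, and -0.19 at 1 w and 1.83 at 4 w in plantlets. Each value compares 1 US with 1 control library, and the difference between times was not tested. A change of direction between 24 h and 48 h was common, since 35.9% of features were lower in US at 24 h and higher at 48 h as these genes were, and 34.9% had the opposite order.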

How the results depend on the processing

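With 1 library per group and time, there are no replicates to pair. US and control libraries can be paired by time, which gives the 5 differences of the report, and no test of these was made because the gene was selected on them. The 13 FAMA comparisons kept their sign in all 39 values under the 3 other scalings, and those past the rule of size were 2 of 5 US comparisons, 3 of 4 US steps and 0 of 4 control steps under each. In 3 of the 39 the value moved beyond its counting interval: the control at 24 h over 0 h was -1.16 under quantile normalization and -1.23 under median-of-ratios factors (log2 difference -0.84 as reported), and the control at 4 w over 1 w was -0.71 under quantile normalization (-1.12 as reported). The counts of features past the rule depended on its limits. With a log2 difference of at least 1 they were 4125, 3335, 4043, 1886 and 3821 for US over control from 0 h to 4 w, 10394, 5440, 3801 and 8399 for the steps in US, and 9557, 4239, 6207 and 4882 for the steps in the control. With at least 4 RPM in the higher library they were 421, 217, 433, 114 and 548 for US over control, 1081 and 596 for US at 48 h over 24 h and at 1 w over 48 h, and 561, 1228 and 909 for the control at 48 h over 24 h, at 1 w over 48 h and at 4 w over 1 w. FAMA was 28th among rises at 4 w with that minimum, 142nd under quantile normalization and 99th as reported. By construction, these limits admit more or fewer features. The 5 features most like FAMA depended on the measure: 2 of them were among the 5 nearest by Spearman correlation, 1 by Pearson correlation of linear RPM, 2 without the US library at 4 w and 4 with no minimum level. At 1.42 RPM, the lowest FAMA level rests on 56 reads, which limits the ratio at 24 h more than the others. With 1 library per group, the spread between cultures is not measured.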
